A study of Homo sapiens with 32 samples.

Results

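The mitochondrial respiratory chain and ATP synthase are built from subunits encoded in the nucleus and in mitochondrial DNA, and the mRNAs followed here are those of the nuclear subunits together with the NDUFAF factors that help to assemble complex I. The members were chosen by symbol (NDUFA, NDUFB, NDUFC, NDUFS, NDUFV, UQCR, COX4 to COX8, ATP5, SDHA to SDHD and CYC1), as protein coding genes outside mitochondrial DNA that are neither pseudogenes nor readthrough genes, with at least 10 reads in at least 6 of the 32 count files. This gave 91 genes of the 60662 gene IDs in the files: 7 core and 30 accessory subunits of complex I, 8 NDUFAF assembly factors, 4 subunits of complex II, 10 of complex III, 14 of complex IV (NDUFA4 and NDUFA4L2 among them) and 18 genes of ATP synthase. Of 97 coding candidates, 6 had too few reads, namely COX4I2, COX6A2, COX7A1, COX7B2, COX8C and ATP5MGL. Just inside the limit were COX6B2, with at least 10 reads in 8 files, NDUFV2 in 15 and NDUFA7 in 25.

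Complexes I and II pass electrons from NADH and succinate to ubiquinone, complex III passes them on to cytochrome c, and complex IV passes them to oxygen. Complexes I, III and IV pump protons while doing so, and ATP synthase uses the proton gradient to make ATP. Most of the subunits are small proteins encoded by abundant, short mRNAs, and each proton-pumping complex combines nuclear products with products of mitochondrial DNA.

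All libraries came from HEK293T, a line derived from human embryonic kidney cells that expresses the large T antigen of SV40. STM2457 blocks METTL3, the methyltransferase behind most N6-methyladenosine (m6A) of mRNA. YTHDF2 binds m6A and promotes mRNA decay, and emetine stalls translating ribosomes. The questions were how mRNA levels change when m6A is depleted, and how far that change depends on YTHDF2 and on translation. Poly(A) RNA was sequenced strand-specifically in 32 libraries from 3 experiments. In the knockdown experiment, 4 groups of 3 libraries received DMSO for 6 h, 20 µM STM2457 for 6 h, YTHDF2 siRNA with DMSO for 6 h, or YTHDF2 siRNA with STM2457 for 6 h, where siRNA was used at 20 nM and cells were harvested 48 h after transfection. The labels do not say whether the libraries without YTHDF2 siRNA received a control siRNA. In the 9 h experiment, 4 libraries received DMSO and 4 received STM2457 for 9 h. In the emetine experiment, 4 groups of 3 received DMSO or STM2457 for 6 h with DMSO or 1.8 µM emetine added in the last 2 h. All groups shared 0.2% DMSO (v/v), and separate cultures are not named for the replicates, so p-values measure the spread between these samples, which may be technical.

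Gene counts per library ran from 37694945 to 42303951 in the knockdown experiment, from 22510323 to 34677704 at 9 h and from 21781514 to 28053353 in the emetine experiment. YTHDF2 was at 178 ± 3.9 CPM (the usual depth-scaled count, here after TMM normalization within an experiment; mean ± SD, n = 3) in DMSO 6 h and at 43.3 ± 1.1 CPM with YTHDF2 siRNA, and in STM2457 libraries YTHDF2 was at 618 ± 36.8 CPM without and 76.9 ± 3.3 CPM with the siRNA. Among markers of this line, median levels were 646 CPM for VIM, 253 for NEFM, 135 for CDH2, 50.1 for KRT18, 12.9 for KRT8 and 4.25 for PAX2. Markers of blood cells, keratinocytes and hepatocytes were near 0. Of the fibroblast markers COL1A1 was at 18.1 CPM, while COL1A2, DCN and LUM were near 0. STM2457 6 h replicate 3 of the knockdown experiment stood apart from its group. In that library the 91 genes took 1.46% of gene counts against 1.27% and 1.28% in the other STM2457 6 h libraries. Ribosomal protein genes took 8.02% against 6.78% and 6.86%. Its spike-in RNAs were 0.465% of gene counts against 0.417% and 0.329%, which does not set it apart: STM2457 replicate 1 with YTHDF2 siRNA had 0.474%. Under TMM scaling, counts, medians and the members named in the comparison of STM2457 6 h with DMSO 6 h are therefore also given without this replicate 3. Of the further gene lists only some counts are, and the genes named from them are given with all libraries.

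The 5 mRNAs that carry most of what follows are shown here by the parts of their coding sequence around GGAC, the core of the motif in which METTL3 places m6A. Capitals mark GGAC on the coding strand, flanked by 10 bases on each side, written 5′ to 3′ from GENCODE 29 transcripts (GRCh38). UQCR11 (chr19:1597172-1605490, minus strand) encodes the smallest subunit of complex III, and its coding sequence of 168 bases is given whole, without the stop codon. NDUFAF4 (chr6:96889313-96897881, minus strand) and NDUFAF7 (chr2:37231631-37253403, plus strand) encode complex I assembly factors, UQCRFS1 (chr19:29205321-29213541, minus strand) the Rieske iron-sulfur protein of complex III, and NDUFS4 (chr5:53560633-53683340, plus strand) an accessory subunit of complex I.
UQCR11 coding sequence: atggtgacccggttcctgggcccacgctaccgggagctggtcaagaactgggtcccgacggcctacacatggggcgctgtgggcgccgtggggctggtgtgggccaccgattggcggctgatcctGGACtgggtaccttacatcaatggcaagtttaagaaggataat
NDUFAF4: ccagaaacctGGACtgctgagaaa
NDUFAF7: cagctgatgtGGACttcagttatt
UQCRFS1 first: agcctgtgttGGACctgaagcggc
UQCRFS1 second: cacagttgagGGACccacagcatg
NDUFS4 first: aggtcgttgaGGACttccacatgg
NDUFS4 second: gattggcacaGGACcagactcaag
A match to these letters is a description of the sequence and not a mapped m6A site. NDUFAF4, which rose, and NDUFAF7 and UQCR11, which fell, each hold 1 GGAC in the coding sequence. At least 1 GGAC lay in the coding sequence of 86.8% of the 91 genes and of 97.5% of the other coding genes, with medians of 2 and 7 per gene. Coding sequences were short, with a median of 462 bases against 1446, and their density of GGAC was 4.12 per kb against 4.73 per kb.

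Before treatment the 91 mRNAs spanned a wide range of levels. Per kb of transcript, the highest levels in DMSO 6 h were those of ATP5F1B, the catalytic beta subunit of ATP synthase, at 652 ± 8.4 CPM per kb (SD, n = 3), COX4I1 at 546, COX5A at 462, COX7C at 428 and ATP5IF1, the inhibitory factor of ATP synthase, at 421 CPM per kb. By role, the median level was 253 CPM per kb for complex IV, 227 for ATP synthase, 130 for complex III, 89.9 for accessory and 80.2 for core subunits of complex I, 38.7 for complex II and 16.6 for the NDUFAF factors. The lowest were COX6B2 at 0.199, NDUFV2 at 0.265, NDUFA4L2 at 0.520 and NDUFA7 at 0.760 CPM per kb. These values divide by the length of 1 GENCODE 29 transcript per gene, so ranks and medians depend on which transcript was taken. That of SDHC has 13566 bases, so its 119 CPM became 8.80 CPM per kb, the lowest of complex II. COX6B2 and NDUFA4L2 are isoforms known from other tissues and conditions, but NDUFV2 and NDUFA7 encode subunits found in every complex I. In GENCODE 29, 91.7% of the coding bases of NDUFV2 and 100% of those of NDUFA7 and COX6B2 also lie in exons of another gene on the same strand, so their counts may not measure their mRNA. The same holds for 100% of the coding bases and 31.2% of the transcript of UQCR11, where the other gene, AC005943.1, had a median of 0 counts, and for 69.0% of the coding bases of ATP5PO. Such overlap also covered 86.8% of the coding bases of NDUFC2, 85.1% of NDUFA9, 83.9% of NDUFB8 and 70% of NDUFA13. It covered 68.9% for ATP5MG, 65.8% for SDHD, 55.1% for COX8A, 53.5% for COX6A1, 45.8% for NDUFA11 and 41.2% for ATP5MF. The same caution applies to the counts of these members.

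After 6 h of STM2457 in the knockdown experiment, 36 of the 91 genes rose and 4 fell by edgeR's quasi-likelihood test with Benjamini-Hochberg adjustment under 0.05, where 22.9% of all genes tested rose and 22.1% fell. The median log2 change of the 91 genes was 0.17, and that of all genes was -0.02. Those that rose were 12 of 30 accessory subunits of complex I, 7 of 14 genes of complex IV, 7 of 18 of ATP synthase, 6 of 10 of complex III, 3 of 8 NDUFAF factors and 1 of 4 of complex II, and none of the 7 core subunits of complex I did. Without replicate 3 of the STM2457 group, 23 genes rose and 12 fell, the background was 20.7% and 22.2%, and the median change was 0.02. All 23 were among the 36. In that fit 3 core subunits of complex I, 4 genes of complex III and 3 accessory subunits fell.

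NDUFAF4 had the largest rise. It was at 50.01, 51.1 and 47.1 CPM in DMSO 6 h and at 71.3, 69.0 and 89.1 CPM in STM2457 6 h. The STM2457 libraries all lay above the DMSO libraries, replicate 3 highest (log2 change 0.63, SE 0.08, adjusted p = 1.67e-06). The next 5 were small subunits: ATP5F1E, the epsilon subunit of ATP synthase (0.41), NDUFB1 of complex I (0.41), ATP5MK, which helps ATP synthase form dimers (0.41), COX6C of complex IV (0.41) and NDUFA4, first assigned to complex I and now to complex IV (0.38). COX6C was at 140.2, 124 and 138 CPM in DMSO and at 174, 155 and 205 CPM in STM2457. Its groups did not overlap, and replicate 3 was again the highest. SDHD, a membrane anchor of complex II, rose by 0.27 (adjusted p = 0.00527). Without replicate 3 all 7 stayed called, with smaller changes: 0.49 for NDUFAF4, 0.29 for ATP5F1E and NDUFB1, 0.28 for COX6C, 0.25 for ATP5MK, 0.19 for NDUFA4 and 0.14 for SDHD (adjusted p = 0.0289).

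UQCR11 had the largest fall at 6 h. In DMSO it was at 59.8, 61.7 and 60.0 CPM and in STM2457 at 40.3, 36.9 and 44.7 CPM. Every treated library lay below every control (log2 change -0.57, SE 0.06, adjusted p = 3.86e-07). Among the others that fell were NDUFAF7 (-0.22, adjusted p = 0.014) and NDUFS8, a core subunit that holds iron-sulfur clusters (-0.14, adjusted p = 0.0393). NDUFS8 was not called without DMSO 6 h replicate 1 (-0.13), without DMSO 6 h replicate 2 (-0.16) or without STM2457 6 h replicate 2 (-0.12). Without replicate 3 the falls were larger, -0.66 for UQCR11, -0.28 for NDUFAF7 and -0.18 for NDUFS8 (adjusted p = 0.00827).

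**Figure D1:**
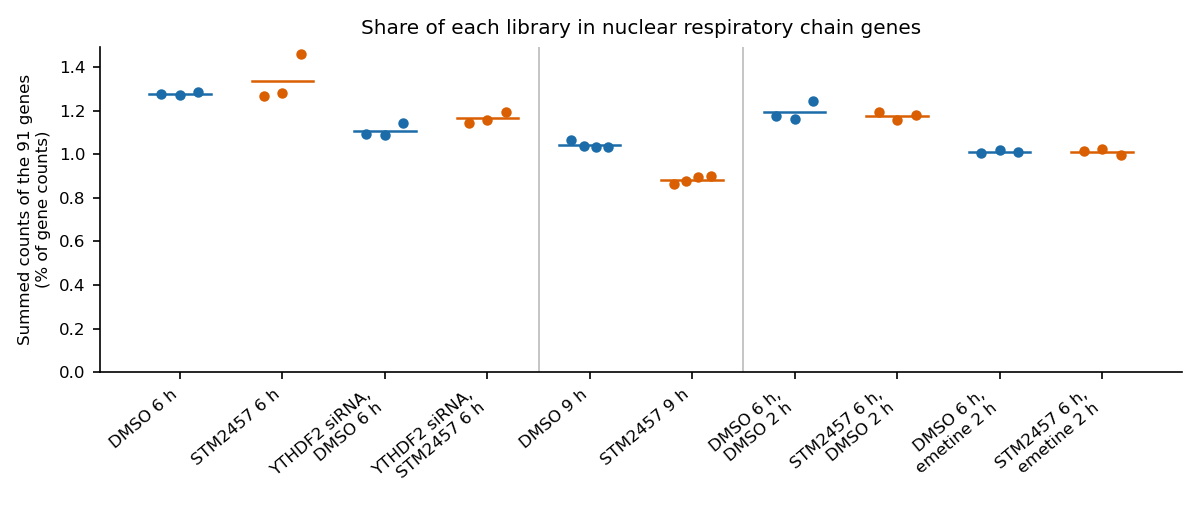
Share of gene counts taken by the respiratory chain genes in each of the 32 libraries, by group, with 1 point per library and a bar at the group mean; the y axis is in percent, and blue marks DMSO and orange STM2457. STM2457 6 h replicate 3 lies at 1.46%, above its group, and the STM2457 9 h libraries, at 0.863% to 0.901%, all lie below the DMSO 9 h libraries, at 1.03% to 1.07%.

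The emetine experiment held a separate 6 h comparison of STM2457 with DMSO, sharing no library with the knockdown experiment. There, 29 of 89 genes tested rose and 13 fell, against 26.0% and 21.9% of all genes, and the median was 0.06 (all genes 0.00). COX6B2 and NDUFV2 had too few counts for this fit and for the 9 h fit. Of complex IV, 11 genes rose and none fell, while of the core subunits of complex I none rose and 3 fell. NDUFAF4 rose by 0.41 (adjusted p = 1.37e-09), ATP5MF, a membrane subunit of ATP synthase, by 0.29 (adjusted p = 1.38e-05), NDUFA4 by 0.23, NDUFA1 by 0.20, NDUFS5 by 0.19 and COX8A by 0.17. Apart from UQCR11 and NDUFAF7 the falls were small: CYC1, the cytochrome c1 of complex III, changed by -0.14 (adjusted p = 0.00282), NDUFA8, an accessory subunit of complex I, by -0.14, NDUFS8 by -0.14 and ATP5F1D, the delta subunit of ATP synthase, by -0.13, each without overlap. Fewer rose, 16, 17 and 16, without DMSO replicate 1, DMSO replicate 2 or STM2457 replicate 1. Here and below, such counts without 1 library come without the share of all genes in that fit unless stated. They therefore do not set the members apart from other genes. In both 6 h experiments 21 genes rose and the same 4 fell, NDUFAF7, NDUFS8 and UQCR11 among them, where 19.6% and 15.02% of all genes tested in both did so. These numbers were 14 and 10 without STM2457 6 h replicate 3 (19.2% and 16.5% of all genes). Across the 89 genes, the changes in both experiments had a Spearman correlation of 0.72, or 0.63 without that replicate; genes are not independent replicates, and the libraries differ in depth.

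In the emetine experiment UQCR11 was at 42.1, 40.2 and 46.0 CPM in DMSO and at 18.5, 17.6 and 19.7 CPM in STM2457. The groups were far apart relative to their spread (log2 change -1.20, SE 0.06, adjusted p = 3.74e-18). This fall was larger than in the knockdown experiment by 0.67 on the log2 scale in 1 fit of all 20 libraries without siRNA or emetine (log2 difference -0.67, SE 0.10, adjusted p = 0.000566). In that comparison of both 6 h experiments 0 genes of the 91 had a higher effect and 2 a lower one (0.239% and 0.604% of all genes), with 0 and 24 at an unadjusted p under 0.05 and 0 and 3 by DESeq2. The other gene was NDUFAF8, an assembly factor, at -0.40 (adjusted p = 0.0453), which was called in 2 of 12 fits that left out 1 library and was at -0.27 and not called without STM2457 6 h replicate 3. Falls numbered 9 without STM2457 6 h replicate 1 and 16 without replicate 2, and 1, UQCR11, without each of the other 10 libraries.

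At 9 h most members fell. Of 89 genes, 69 fell and 5 rose, where 32.5% of all genes fell and 32.2% rose, and the median change was -0.23 (all genes 0.00). Every class had more falls than rises: 23 accessory and 6 of 6 core subunits of complex I, 14 of 18 genes of ATP synthase, 10 of 13 of complex IV, 7 of 10 of complex III, 5 of 8 NDUFAF factors and 4 of 4 of complex II fell. Core subunits of complex I had the lowest median, -0.41, and complex IV the highest, -0.14. The summed share of the 91 genes was 1.07%, 1.04%, 1.03% and 1.03% of gene counts with DMSO and 0.863%, 0.877%, 0.895% and 0.901% with STM2457, without overlap.

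UQCR11 again had the largest fall. It was at 51.2, 49.5, 45.7 and 48.5 CPM in DMSO 9 h and at 26.8, 26.6, 30.3 and 28.1 CPM in STM2457 9 h. All 4 treated libraries lay below all 4 controls (log2 change -0.80, SE 0.05, adjusted p = 1.9e-13). NDUFS4 was at 31.9, 34.0, 33.8 and 31.7 CPM in DMSO and at 17.9, 20.0, 20.5 and 19.0 CPM in STM2457. Its groups were also apart, with the lowest control well above the highest treated library (log2 change -0.76, SE 0.05, adjusted p = 1.52e-12).

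CYC1 was at 199, 197, 182 and 174 CPM in DMSO and at 109.9, 112, 124 and 118 CPM in STM2457. The controls spread more widely than the treated libraries and did not overlap them (log2 change -0.70, SE 0.04, adjusted p = 2.28e-13). ATP5PO, the stalk subunit that confers oligomycin sensitivity on ATP synthase, went from 65.1, 63.3, 66.3 and 67.0 CPM to 42.4, 45.0, 41.4 and 40.4 CPM. Both groups were tight (log2 change -0.63, SE 0.04, adjusted p = 6.06e-13). UQCRC1, a core protein of complex III, fell by 0.57, NDUFS8 by 0.56, SDHB, the iron-sulfur subunit of complex II, by 0.52, and COX5A of complex IV by 0.40, each without overlap between the groups.

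Of the 5 rises at 9 h, that of UQCRFS1 of complex III had the smallest p. It was at 98.4, 93.8, 98.2 and 96.4 CPM in DMSO 9 h and at 119, 120.1, 121 and 125 CPM in STM2457 9 h. It thus moved opposite to UQCR11 and CYC1 of the same complex (log2 change 0.33, SE 0.03, adjusted p = 9.94e-10). NDUFAF1, an assembly factor, rose by 0.19 (adjusted p = 0.00146), and NDUFA4L2, an isoform known from hypoxia, was at 0.353, 0.493, 0.418 and 0.562 CPM in DMSO and 1.00, 0.779, 0.672 and 0.645 CPM in STM2457, so its rise of 0.74 (adjusted p = 0.00926) rested on few reads. UQCRHL, at 0.18 (adjusted p = 0.0379), is a near-identical copy of UQCRH, so reads of both may be split between them. NDUFAF4, at 0.09 (adjusted p = 0.0416), was called in 3 of 8 fits that left out 1 library and not by DESeq2, and UQCRHL was lost in 5 of 8 such fits. For UQCRHL the changes in these 5 were 0.17, 0.18, 0.19, 0.17 and 0.11 without DMSO 9 h replicates 1, 2 and 3 and STM2457 9 h replicates 2 and 4, and for NDUFAF4 0.06, 0.09, 0.09, 0.09 and 0.08 without DMSO 9 h replicates 1 and 2 and STM2457 9 h replicates 2, 3 and 4.

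**Figure D2:**
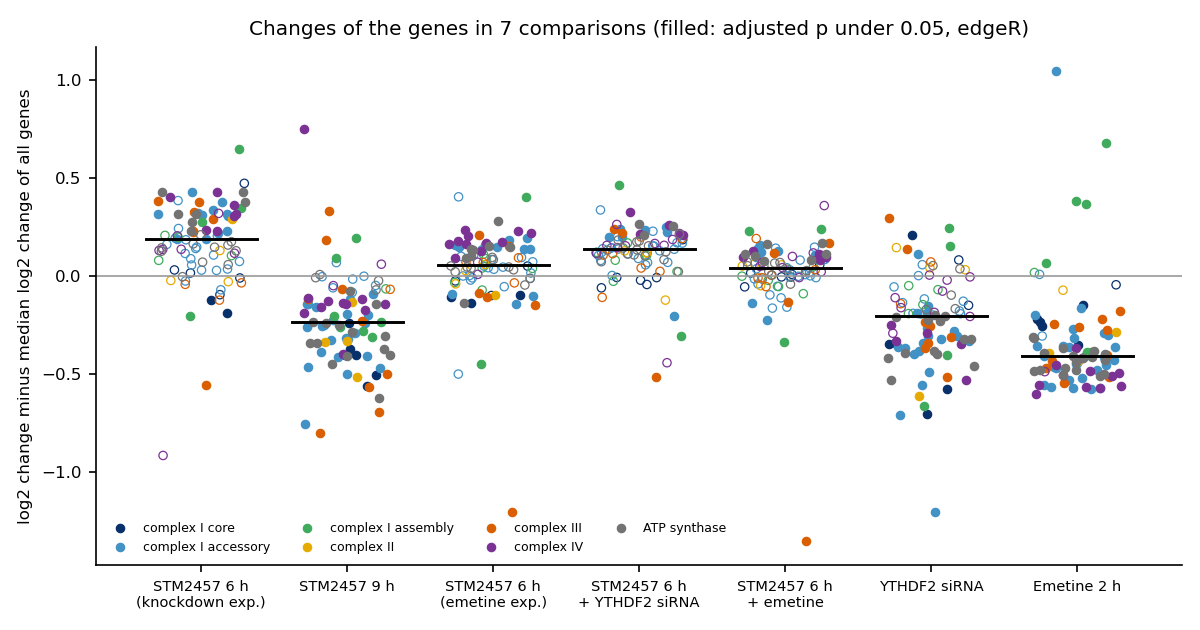
Log2 change of each member minus the median log2 change of all genes (y axis, TMM scaling) in the 7 comparisons between groups (x axis), with 1 point per gene coloured by class, filled where called by edgeR, and a bar at the median of the members. The bar lies at 0.19 after 6 h of STM2457 in the knockdown experiment (0.05 without STM2457 6 h replicate 3), at -0.23 after 9 h and at -0.41 under emetine.

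Put side by side, 23 of 89 genes rose at 6 h in the knockdown experiment and fell at 9 h, and 0 fell first and rose later, against 2.17% and 2.12% of all genes. Their 6 h changes ran from 0.17 to 0.41 with a median of 0.29, and their 9 h changes from -0.41 to -0.07 with a median of -0.14. The 6 h changes of these 23 genes without STM2457 6 h replicate 3 ran from 0.06 to 0.25 with a median of 0.14. They were NDUFA2, NDUFA6, NDUFAB1, NDUFB3, NDUFB6, NDUFB7, NDUFB11, NDUFC1 and NDUFC2 of complex I, NDUFA4, COX4I1, COX5B, COX7A2, COX7B and COX7C of complex IV, UQCRH, UQCRQ and UQCR10 of complex III, ATP5IF1, ATP5MJ, ATP5MK and ATP5PF of ATP synthase and SDHD of complex II. Without STM2457 6 h replicate 3 there were 13 such genes, all among the 23, and 0 of the opposite order (1.00% and 1.64% of all genes). With the 6 h comparison of the emetine experiment, which does not hold that library, there were 20 (1.93% of all genes). Of these 20, 15 were among the 23, and the others were ATP5MC2, ATP5PO, COX6A1, COX6B1 and COX8A. Those 20 had changes of 0.09 to 0.23 at 6 h, with a median of 0.16, and of -0.63 to -0.07 at 9 h, with a median of -0.14.

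The difference between the 9 h effect and the 6 h effect of the knockdown experiment was tested in the fit of 20 libraries. It was lower for 78 of 91 genes and higher for 0, against 23.3% and 13.8% of all genes, with 79 and 0 at an unadjusted p under 0.05 and 78 and 0 by DESeq2. The median difference was -0.43 (all genes -0.03), and without STM2457 6 h replicate 3 the counts were 73 and 1 (20.1% and 11.4% of all genes) and the median -0.32. The largest differences, which were -0.68, -0.65, -0.61 and -0.52 and still called without that replicate, were those of ATP5PO (-0.86, adjusted p = 1.32e-06), NDUFS4 (-0.83, adjusted p = 3.82e-06), NDUFB6, an accessory subunit of complex I (-0.75, adjusted p = 6.61e-07), and ATP5MK (-0.69, adjusted p = 2.67e-05). Against the 6 h effect of the emetine experiment, a comparison added after the data were seen, the 9 h effect was lower for 60 and higher for 2 of 91 genes (15.4% and 10.4% of all genes), with a median of -0.29 (all genes -0.03), and DESeq2 called 59 and 2. Without 1 library in turn the lower ones numbered 40 to 60. The 40 came without DMSO replicate 2 of the emetine experiment, where 1921 of all 17188 genes were lower. ATP5PO (-0.76), NDUFS4 (-0.77) and NDUFB6 (-0.55) kept their calls in all 14 such fits, and ATP5MK (-0.33, adjusted p = 0.0329) in 4. The 2 higher ones were UQCR11 (log2 difference 0.40, SE 0.09, adjusted p = 0.0022) and UQCRFS1 (log2 difference 0.26, SE 0.07, adjusted p = 0.00741), so for UQCR11 the direction depended on the 6 h experiment: its fall at 9 h was larger than that in the knockdown experiment and smaller than that in the emetine experiment. The 9 h libraries come from 1 experiment that holds no other time, so time and experiment cannot be told apart.

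ATP5PO at 6 h was at 108, 111 and 117 CPM in DMSO and 112, 117 and 155 CPM in STM2457. NDUFS4 was at 41.9, 39.9 and 41.9 CPM in DMSO 6 h and 38.5, 36.9 and 51.5 CPM in STM2457 6 h. For both genes the groups overlapped at 6 h and were apart at 9 h. For NDUFS4 the overlap came from STM2457 6 h replicate 3. Without that library NDUFS4 was called lower at 6 h by edgeR (-0.14, adjusted p = 0.0372), while ATP5PO was at 0.01 and not called. The genes nevertheless kept much of their order: across 89 genes the 6 h change in the knockdown experiment and the 9 h change had a Spearman correlation of 0.68, or 0.71 without replicate 3, and with the 6 h change of the emetine experiment it was 0.61. Coding length, given next, varied along with both, and its part was not tested.

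**Figure D3:**
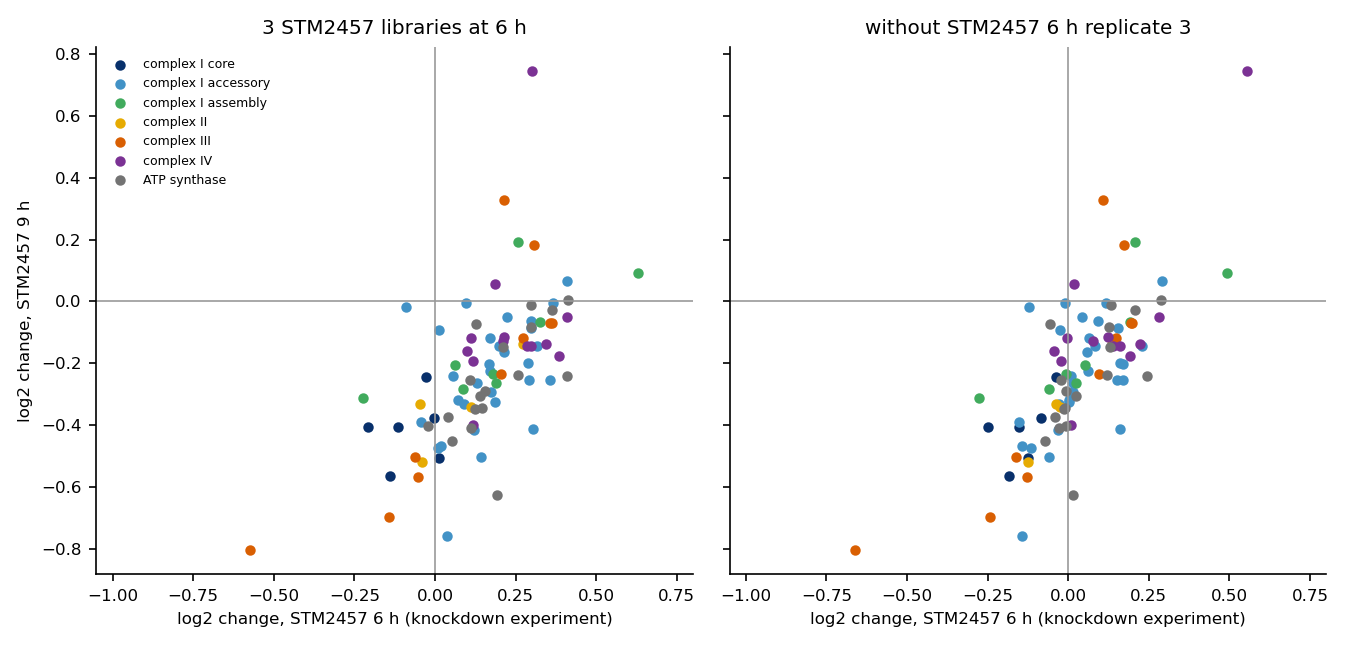
Log2 change after 6 h of STM2457 in the knockdown experiment (x axis) against that after 9 h (y axis) for the 89 genes tested in both, 1 point per gene coloured by class, under TMM scaling, with all libraries on the left and without STM2457 6 h replicate 3 on the right. With all libraries 23 genes were called higher at 6 h and lower at 9 h, and without that replicate 13; UQCR11 is the point at the lower left of both panels.

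The changes under STM2457 varied with the coding length of the members. At 6 h in the knockdown experiment the 24 genes with up to 300 coding bases had a median change of 0.30 and 17 of them (70.8%) rose, against 33.7% of other coding genes of that length, the 41 genes from 300 to 600 bases had 0.17, the 15 from 600 to 1200 bases had 0.09 and the 11 above 1200 bases had -0.05 with none that rose. Among other coding genes the corresponding medians were 0.13, 0.06, 0.00 and -0.03. Without STM2457 6 h replicate 3 the medians of the members were 0.16, 0.04, -0.06 and -0.08, those of the others 0.04, -0.01, -0.04 and -0.02, and 12 of the 24 shortest rose, against 22.3% of other coding genes of that length. At 9 h the medians of the members were -0.12, -0.23, -0.43 and -0.33, and those of the other coding genes were -0.09, -0.12, -0.05 and 0.04. As a description across genes, Spearman's rho between coding length and change was -0.59 at 6 h and -0.52 at 9 h for the members and -0.08 and 0.15 for the other coding genes; without replicate 3 the 6 h values were -0.55 and 0.02. Under emetine alone it was 0.57 for the members and 0.23 for the others, so that there the short mRNAs were the lowest. The part of coding length in these differences was not tested.

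YTHDF2 siRNA alone, compared in DMSO, gave 48 falls and 6 rises among 91 genes, against 29.3% and 33.1% of all genes, with a median of -0.18 (all genes 0.02). Falls were seen for 18 of 30 accessory subunits of complex I, 13 of 18 genes of ATP synthase, 6 of 10 of complex III, 5 of 14 of complex IV, 3 of 7 core subunits, 2 of 8 NDUFAF factors and 1 of 4 of complex II. NDUFA1, an accessory subunit of complex I needed for its assembly, had the largest change of any member in that comparison. It was at 166, 159 and 170.4 CPM in DMSO 6 h and at 71.6, 70.4 and 76.3 CPM with the siRNA. The siRNA libraries all lay far below the lowest control (log2 change -1.18, SE 0.11, adjusted p = 3.62e-08). NDUFA1 (chrX:119871487-119876662, plus strand) shares 44.5% of its exonic bases with RNF113A on the opposite strand, which changed by -0.06 (adjusted p = 0.366) in that comparison and rose by 1.04 with STM2457 6 h in the same experiment, where NDUFA1 was called higher with all libraries and not without STM2457 6 h replicate 3.

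The GGAC windows of NDUFA1 are shown because it is the member with the largest response to YTHDF2 siRNA, and its coding sequence of 210 bases holds a pair of them.
NDUFA1 first: gattctccccGGACtctccgtcat
NDUFA1 second: gttgattccaGGACtggctactgc
Next after NDUFA1 came NDUFA9 (-0.68), a subunit at the junction of the matrix and membrane arms, NDUFV1, which binds NADH (-0.68), NDUFAF3 (-0.64), SDHB (-0.59) and NDUFS1, the largest core subunit (-0.55), each without overlap. NDUFV1 went from 141, 138 and 146 CPM to 86.3, 91.3 and 87.8 CPM (log2 change -0.68, SE 0.05, adjusted p = 6.95e-10), a narrow spread in both groups.

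UQCRFS1 was the strongest of the 6 that rose with the siRNA. It was at 105, 106 and 107 CPM in DMSO 6 h and at 135, 125 and 138 CPM with the siRNA, without overlap (log2 change 0.32, SE 0.06, adjusted p = 0.000216). NDUFAF8 (0.27) and NDUFS7, a core subunit (0.23), followed. NDUFAF7 (0.18), CYC1 (0.16) and NDUFV3 (0.13) were called too, but NDUFAF7 lost its call in 5 of 6 fits that left out 1 library, with 0.12 at the lowest, and CYC1 and NDUFV3 lost theirs in 6 of 6, with 0.10 and 0.09 at the lowest. Because the labels do not say whether controls were transfected, YTHDF2 loss and transfection cannot be told apart.

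STM2457 in YTHDF2 siRNA cells for 6 h gave 17 rises and 3 falls among 91 genes, against 15.5% and 15.4% of all genes, with a median of 0.13 (all genes 0.00). The count of rises depended on each library: it was 6, 3 and 10 without DMSO replicates 1, 2 and 3 and 9, 9 and 5 without STM2457 replicates 1, 2 and 3. NDUFAF4 went from 38.9, 36.5 and 38.5 CPM to 49.9, 52.9 and 54.2 CPM (log2 change 0.46, SE 0.08, adjusted p = 0.000123), so that the highest control lay well below the lowest treated library. COX6C rose by 0.32 (adjusted p = 0.00294) and ATP5F1E by 0.26 (adjusted p = 0.00756). NDUFA4 (0.26, adjusted p = 0.0472), ATP5MG, a membrane subunit of ATP synthase (0.25), and NDUFB6 (0.25) were also called, but lost their calls in 6, 5 and 3 of 6 fits that left out 1 library, with 0.20, 0.21 and 0.21 at the lowest. The 3 falls were UQCR11, NDUFAF7 and NDUFV3, a small subunit of the NADH-binding module (-0.21, adjusted p = 0.00292). UQCR11 was at 49.3, 48.1 and 51.1 CPM in DMSO and 34.9, 32.8 and 36.0 CPM in STM2457, again apart (log2 change -0.52, SE 0.06, adjusted p = 2.87e-06).

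Whether the siRNA altered the STM2457 effect was tested by the interaction. Of 91 genes 0 had a higher effect and 1 a lower effect, against 1.78% and 6.93% of all genes, with 1 and 1 at an unadjusted p under 0.05 and 0 and 1 by DESeq2. Without STM2457 6 h replicate 3 there were 8 and 1 (background 4.21% and 8.71%). The 1 gene was UQCRFS1, which rose by 0.21 with STM2457 alone and was at -0.11 with the siRNA (log2 difference -0.33, SE 0.09, adjusted p = 0.0269). Without STM2457 6 h replicate 3 its change with STM2457 alone was 0.11 and not called (adjusted p = 0.0666), while the interaction was -0.22 and still called (adjusted p = 0.0209). It stood at 115, 116 and 138 CPM with STM2457 alone and at 118, 125 and 124 CPM with both. STM2457 libraries of both kinds thus overlapped, while the DMSO libraries, given above, did not. This call was kept in 4 of 12 fits that left out 1 library and was lost under either alternative scaling (-0.24 and -0.25), and its size without 1 library in the fits that lost it was -0.33 to -0.29.

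**Figure D4:**
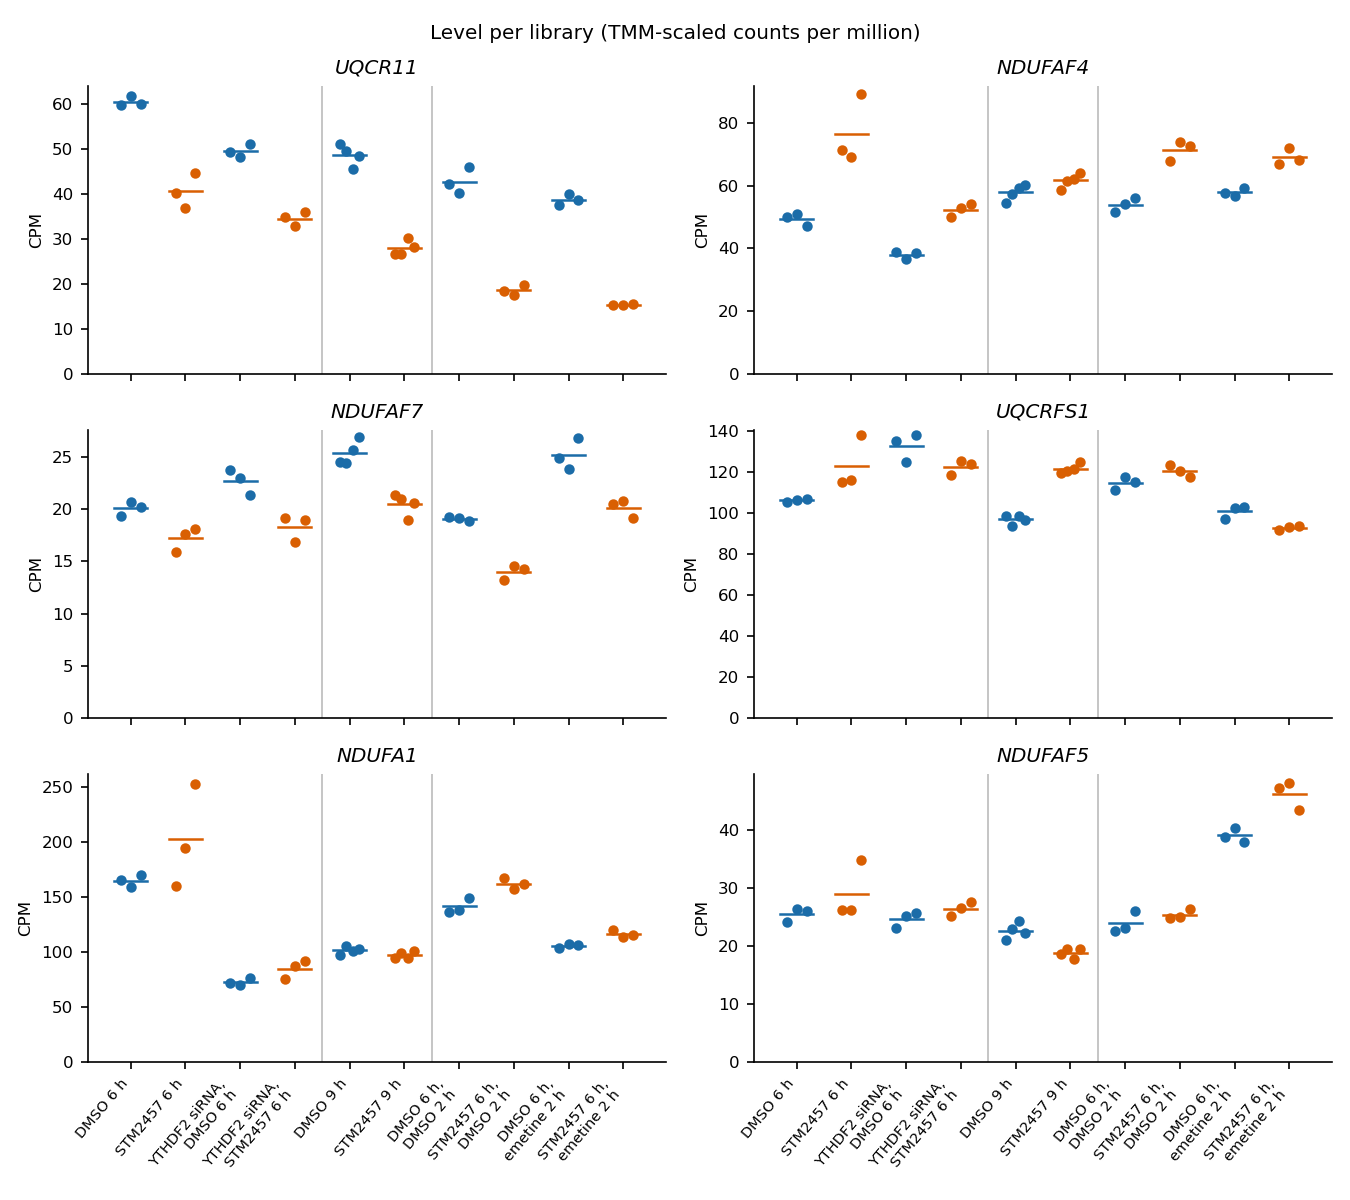
Levels (CPM, TMM within each experiment) of 6 members in every library, 1 point per library and a bar at the group mean, with blue for DMSO and orange for STM2457; grey lines separate the experiments, whose levels are not comparable with each other. UQCR11 and NDUFAF7 lie lower and NDUFAF4 higher in STM2457 than in the matching DMSO group in the 6 h settings, and NDUFA1 lies near 70.4 to 76.3 CPM with YTHDF2 siRNA and DMSO.

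Emetine for 2 h without STM2457 gave 78 falls and 5 rises among 89 genes, against 28.3% and 33.9% of all genes, and a median of -0.37 (all genes 0.04). All 18 genes of ATP synthase, 27 of 30 accessory subunits of complex I, 12 of 13 genes of complex IV and all 10 of complex III fell. NDUFA4 (-0.57), NDUFS5 (-0.54), COX7C (-0.54), NDUFB9 (-0.54), NDUFB7 (-0.53) and NDUFB1 (-0.53) fell the most, each without overlap. NDUFA4 was at 138, 128 and 153 CPM in DMSO and 90.6, 99.8 and 92.1 CPM in emetine, and the lowest control was above the highest emetine library (log2 change -0.57, SE 0.05, adjusted p = 1.64e-11).

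The NDUFAF factors were the exception, with 4 rises and 3 falls and a median of 0.08. NDUFAF5, which modifies NDUFS7 during assembly, was at 22.7, 23.1 and 26.0 CPM in DMSO and 38.9, 40.5 and 38.04 CPM in emetine. The groups did not overlap (log2 change 0.71, SE 0.06, adjusted p = 6.22e-13). NDUFAF6 rose by 0.42 and NDUFAF7 by 0.40, while NDUFAF4, at 0.10 (adjusted p = 0.0436), kept its call in 1 of 6 fits that left out 1 library, with values from 0.04 in the fits that lost it. The remaining gene that rose, NDUFA7, was at 0.261 ± 0.15 CPM in DMSO and rested on few reads. These directions are relative to the other mRNAs. Under scaling to spike-ins the median of the members was 0.11 and 0 of them fell. Of all 15817 genes tested, 227 fell and 11558 rose under that scaling. The distance of the members from the median of all genes stayed at -0.41, because a scaling shifts all genes nearly alike. The cytosolic ribosomal protein genes, which are also short and abundant mRNAs, fell in 78 of 79 cases with a median of -0.46.

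With emetine present, STM2457 gave 22 rises and 5 falls among 89 genes, against 21.6% and 16.2% of all genes, with a median of 0.06 (all genes 0.01). Rises numbered 14 without DMSO replicate 3 and 13 without STM2457 replicate 2, and falls 3 without DMSO replicate 2. NDUFAF4 rose by 0.25 (adjusted p = 1.23e-05) and NDUFAF5 by 0.24 (adjusted p = 0.000284), followed by ATP5MF, UQCRH and ATP5IF1 at 0.18 each and NDUFB1 at 0.17 (0.13 and not called without STM2457 replicate 2). Within the emetine experiment UQCR11 had its lowest levels here, 15.3, 15.2 and 15.5 CPM with STM2457 and emetine against 37.6, 39.9 and 38.8 CPM with emetine alone. The spread was a small part of that distance (log2 change -1.34, SE 0.06, adjusted p = 1.5e-18). NDUFAF7, NDUFV3, NDUFA6 and UQCRFS1 fell by 0.32, 0.21, 0.12 and 0.12, of which NDUFA6 was lost in 4 and UQCRFS1 in 2 of 6 fits that left out 1 library. UQCRFS1 was at -0.11 and -0.10 without emetine replicates 2 and 3 (DMSO with emetine), and NDUFA6 at -0.10 to -0.13 in its 4 fits.

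The interaction of STM2457 with emetine was higher for 1 and lower for 1 of 89 genes, against 6.71% and 11.1% of all genes, and DESeq2 called 4 and 1. Lower effects numbered 11 without DMSO replicate 3 (no emetine), 4 without STM2457 replicate 2 (no emetine) and 2 without STM2457 replicate 1 (emetine), and without 1 library the higher effects numbered 0 to 3. The shares of all genes in these fits are not given. UQCRFS1 was at 0.07 without and fell by 0.12 with emetine (log2 difference -0.19, SE 0.05, adjusted p = 0.00769), a call that held without each library in turn and was lost when libraries were scaled to ribosomal protein genes or spike-ins (-0.12 and -0.14). NDUFS8 fell by 0.14 without emetine and was not called with it (log2 difference 0.16, SE 0.05, adjusted p = 0.0408), which was called in 8 of 12 fits that left out 1 library. In the fits that lost it the difference was 0.13 to 0.16. UQCRFS1 was thus called lower in both interactions, and both calls were lost under either alternative scaling. The share of all genes called lower in both was not computed.

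Only NDUFAF4 rose, and only NDUFAF7 and UQCR11 fell, in all 5 STM2457 comparisons, with or without STM2457 6 h replicate 3, where 9.45% of all genes rose and 4.96% fell in all 5 (9.53% and 5.05% without it). NDUFAF7 was at 19.4, 20.7 and 20.2 CPM in DMSO 6 h and 15.9, 17.6 and 18.1 CPM in STM2457 6 h. In the emetine experiment it was at 19.3, 19.2 and 18.8 CPM in DMSO and 13.3, 14.5 and 14.3 CPM in STM2457 (log2 change -0.44, SE 0.07, adjusted p = 1.6e-06). The groups did not overlap in either. NDUFAF7 encodes an arginine methyltransferase that acts during the assembly of complex I. Its change was -0.31 at 9 h (adjusted p = 1.07e-05) and -0.31 with the siRNA (adjusted p = 0.0018). NDUFAF7 shares 9.53% of its exonic bases, and 0.605% of its coding bases, with CEBPZ and PRKD3 on the opposite strand. Their median counts were 4482.5 and 4436 against 669.5 for NDUFAF7. CEBPZ changed by 0.42, 0.18 and 0.27 at 6 h in the knockdown and emetine experiments and at 9 h. It changed by 0.39 with the siRNA and -0.21 with emetine. What this overlap adds to the counts was not tested. Lower levels after YTHDF2 siRNA, emetine and STM2457 9 h alike were found for 37 of 89 genes, against 6.92% of all genes, in comparisons that share no control library. SDHB, NDUFV1, NDUFS1, NDUFS4 and ATP5PO were among the 37.

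How far a rise or fall is absolute depends on the scaling. A change of scaling adds nearly the same amount to the log2 change of every gene. The distance between the members and other genes could therefore hardly move with it. Scaling to cytosolic ribosomal protein genes moved the median change of all genes by -0.26 (STM2457 6 h, knockdown experiment), 0.17 (9 h), -0.17 (6 h, emetine experiment), -0.19 (with siRNA), -0.11 (with emetine) and 0.44 (emetine alone), and scaling to spike-ins, available in 24 libraries, by -0.37, -0.13, -0.31, -0.08 and 0.49 in the same order without 9 h. The member median at 6 h in the knockdown experiment then became -0.11 and -0.22 in place of 0.17, and at 9 h it became -0.06. These alternative scalings were not fitted without STM2457 6 h replicate 3. That library had the highest ribosomal protein and spike-in shares of its group, so its part in the 6 h values is not known. Relative to the median of all genes, the member median was 0.19 at 6 h and -0.23 at 9 h under TMM, 0.06 at 6 h in the emetine experiment, 0.14 with the siRNA, 0.04 with emetine, -0.21 for YTHDF2 siRNA and -0.41 for emetine alone. Without STM2457 6 h replicate 3, the 6 h value in the knockdown experiment was 0.05. Of 79 ribosomal protein genes tested, 61 rose and 0 fell at 6 h under TMM (median 0.28; 44 rose and 0 fell without replicate 3), and 1 rose and 61 fell at 9 h (median -0.16), the same directions as the members. At 6 h 67 rose and 0 fell in the emetine experiment, 30 and 0 did so with the siRNA and 57 and 0 with emetine, while YTHDF2 siRNA alone gave 7 rises and 15 falls.

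**Figure D5:**
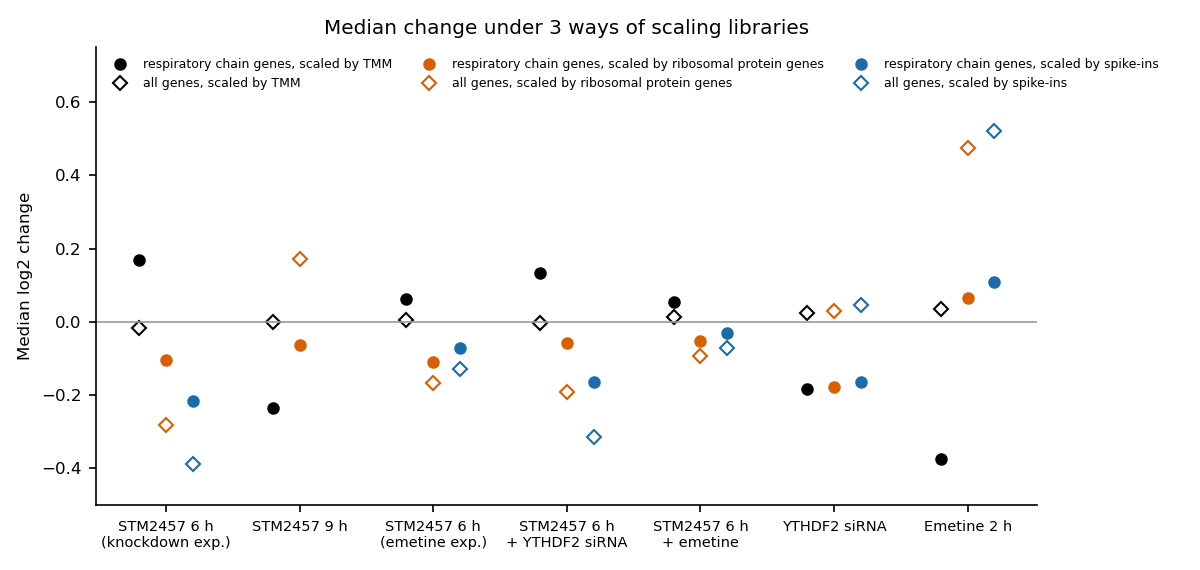
Median log2 change of the respiratory chain genes and of all genes in each comparison, under TMM, ribosomal protein and spike-in scaling (spike-ins are not in the 9 h libraries). All libraries are included, STM2457 6 h replicate 3 among them. Because a scaling shifts all genes nearly alike, the member and all-gene medians move together: the member median at 6 h in the knockdown experiment is 0.17 under TMM and -0.11 and -0.22 under the other scalings, and that of emetine is -0.37 under TMM and 0.06 and 0.11 under the others.

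Genes that work with the nuclear subunits were described from lists by role. Of all genes tested, 22.9% rose and 22.1% fell at 6 h in the knockdown experiment, and 26.0% and 21.9% in the emetine experiment. The shares were 32.2% and 32.5% at 9 h, 15.5% and 15.4% with the siRNA and 21.6% and 16.2% with emetine. Under YTHDF2 siRNA alone they were 33.1% and 29.3%, and under emetine alone 33.9% and 28.3%. List values hold all libraries unless stated. The 13 protein genes of mitochondrial DNA, which supply the remaining subunits, had 0 rises and 0 falls in each of the 5 STM2457 comparisons by edgeR and by DESeq2, and at an unadjusted p under 0.05 there was 1 rise at 9 h and 1 fall at 6 h in the emetine experiment. Their summed share varied between replicates, from 3.59% to 6.16% of gene counts in DMSO 6 h alone. With YTHDF2 siRNA alone 0 rose and 1 fell by either tool, MT-ND6 (-1.33 in edgeR), with 1 and 1 at an unadjusted p under 0.05. With emetine alone 0 rose and 2 fell by edgeR, 0 and 1 by DESeq2 and 0 and 2 at an unadjusted p under 0.05.

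Of 47 assembly factors outside the NDUFAF family, 14 rose and 12 fell at 6 h in the knockdown experiment (11 and 19 without STM2457 6 h replicate 3), 12 and 23 did so at 6 h in the emetine experiment, 8 and 30 at 9 h, 7 and 11 with the siRNA and 4 and 14 with emetine. Under YTHDF2 siRNA alone and under emetine alone 16 rose and 18 fell. SDHAF1, which inserts iron-sulfur clusters into SDHB, changed by -2.55, -3.02 and -1.82 at 6 h in the knockdown and emetine experiments and at 9 h, larger falls than that of any member. SCO2, a copper chaperone of complex IV, changed by 1.42, 1.27 and 1.28, and COA7, a further complex IV factor, by 0.81, 0.74 and 0.72 in the same order.

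Of 15 regulators of chain gene expression, 9 rose and 0 fell at 6 h in either experiment and with the siRNA, 8 rose and 0 fell with emetine, and 5 rose and 5 fell at 9 h. DESeq2 also called 0 falls in these 4 comparisons, and at an unadjusted p under 0.05 there were 1, 0, 1 and 1. PPRC1 and PPARGC1B, coactivators of the PGC-1 family, and the transcription factors YY1 and GABPA led the rises, with YY1 at 0.62 and 0.61 and PPRC1 at 0.74 and 0.82 at 6 h in the knockdown and emetine experiments. YTHDF2 siRNA alone gave 2 rises and 9 falls, and emetine alone 9 and 4. Of 16 enzymes of the citric acid cycle, which delivers NADH and succinate, 1 rose and 15 fell at 9 h, 2 and 2 did so at 6 h in the knockdown experiment (1 and 5 without STM2457 6 h replicate 3), 2 and 8 in the emetine experiment, 2 and 0 with the siRNA (2 and 2 at an unadjusted p under 0.05, 2 and 0 by DESeq2) and 3 and 2 with emetine. SUCLG1, a subunit of succinyl-CoA ligase, FH, which hydrates fumarate, and IDH3G of isocitrate dehydrogenase changed by -0.65, -0.57 and -0.47 at 9 h. YTHDF2 siRNA alone gave 3 and 9 and emetine alone 1 and 14. The 4 genes of further electron carriers, CYCS, ETFA, ETFB and ETFDH, all fell at 9 h, 1 fell at 6 h in the emetine experiment, and 3 fell under YTHDF2 siRNA alone and 3 under emetine alone. At 6 h in the knockdown experiment, with the siRNA and with emetine, 0 of them passed by edgeR or DESeq2, with 1, 0 and 1 at an unadjusted p under 0.05.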

How the data were processed

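Each of the 32 deposited files holds 1 library's unnormalized counts of reads, 1 row per Ensembl gene. The submitters' processing notes name featureCounts from Subread 2.0.0, the aligner STAR 2.7.3a, SAMtools 1.9, the trimmers cutadapt (1.18 and 4.0) and Trimmomatic, FastQC 0.11.8 and the build GRCh38.p12. Which annotation and strand option were used for counting is not given in the sources used here, and where genes overlap their reads may have gone to either or to none. Positions, transcripts and coding lengths came from GENCODE 29 (GRCh38), 1 transcript per gene. Counts of 92 spike-in RNAs in 24 libraries were kept apart from the gene counts.

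The tests were run with edgeR 4.0.16 in R 4.3.3 (TMM, filterByExpr by group, quasi-likelihood F test, Benjamini-Hochberg adjustment over all genes tested, threshold 0.05). Each experiment was normalized and fitted by itself, so levels in CPM may be compared within an experiment only. Differences between experiments came from 1 fit of 20 libraries. In all there were 11 comparisons, 7 between groups and 4 of differences between STM2457 effects. "Rose", "fell" and "called" refer to this threshold. The scripts were tested on simulated counts with known changes. Alternatives were DESeq2 1.42.0, no low-count filter, scaling to cytosolic ribosomal protein genes or to spike-ins, a replicate block, and leaving out each library in turn. The comparison of 9 h with 6 h in the emetine experiment and the values by coding length without STM2457 6 h replicate 3 were added after the data were seen.

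The members, lists and tests were chosen with earlier results of these data known. By rule the text names, per comparison between groups, up to 6 called members with the largest change in each direction and no overlap between groups (up to 4 for a difference), the member with the smallest p per class at 6 h and 9 h, members called alike in all 5 STM2457 comparisons or oppositely in 2 experiments, tissue-restricted isoforms, UQCR11 and ATP5PO, and up to 3 genes of each list. Members that complete a count of 5 or fewer outside this rule, and examples from the set of 37 genes, were chosen after their values were seen. The lists were the protein genes of mitochondrial DNA, assembly factors, regulators of chain gene expression, citric acid cycle enzymes, electron carriers and cytosolic ribosomal proteins. The values of 1 member are not reported here. Lists are described by counts and medians, without a test of the list.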

Additional observations from a re-analysis of the deposited data

Results flagged for a closer look

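Each of the following is a difference between STM2457 effects that passed the threshold in edgeR (log2 difference), in which a group's effect differed from that of another group under the same contrast. With YTHDF2 siRNA the effect on UQCRFS1 was lower by 0.33 (log2 difference -0.33), and with emetine the effect on UQCRFS1 differed by -0.19 and that on NDUFS8 by 0.16. Between 9 h and 6 h of the knockdown experiment the effects differed by -0.86 for ATP5PO, -0.83 for NDUFS4, -0.75 for NDUFB6, -0.69 for ATP5MK and -0.26 for UQCR11, the last at -0.18 and not called without STM2457 6 h replicate 3. Against 6 h of the emetine experiment the effect on UQCR11 at 9 h was higher by 0.40 (adjusted p = 0.0022), the opposite direction. Between both 6 h experiments they differed by -0.67 for UQCR11 and -0.40 for NDUFAF8. At 9 h, the only groups of 4 libraries, none of 28 groups from 14 genes held a library that stood apart from the rest by Dixon's criterion.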

How the results depend on the processing

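Counts of called members depended mainly on the scaling. The counts under alternative scalings hold all libraries, STM2457 6 h replicate 3 included. Scaled to ribosomal protein genes, 1 rose and 35 fell at 6 h in the knockdown experiment, 19 and 33 at 9 h, 1 and 42 at 6 h in the emetine experiment, 1 and 10 with the siRNA, 2 and 17 with emetine and 32 and 3 under emetine alone. Of all genes, 1245 rose and 7361 fell of 16662 at 6 h in the knockdown experiment, and 703 and 4241 with the siRNA. At 9 h 7531 and 2405 of 15834 did so. In the emetine experiment 2198 and 6696 of 15817 did so at 6 h, 1657 and 4375 with emetine and 11477 and 406 under emetine alone. In the same scaling the interaction with the siRNA was lower for 0, that with emetine higher for 5 and lower for 0, the 9 h effect higher for 14 and lower for 3, and the emetine experiment's effect lower for 1. Scaled to spike-ins, 0 rose and 7 fell at 6 h in the knockdown experiment, 1 rose at 6 h in the emetine experiment, 0 rose with the siRNA or with emetine, 0 rose and 10 fell under YTHDF2 siRNA, 28 rose and 0 fell under emetine alone, and the interactions were lower for 0 and, with emetine, higher for 0. Of all genes under this scaling, 398 rose and 5023 fell of 16662 at 6 h in the knockdown experiment, and 138 rose with the siRNA. In the emetine experiment 2092 of 15817 rose at 6 h and 1351 with emetine. Under emetine alone 11558 rose and 227 fell. Without the low-count filter 8 fell at 6 h in the emetine experiment, 26 rose with the siRNA, the interaction with emetine was higher for 0 and lower for 3, and 8 had a lower effect in the emetine experiment. With the 6 h effect of the emetine experiment in place of that of the knockdown experiment, an alternative added after seeing the data, the 9 h effect was higher for 2 and UQCR11 turned direction (0.40). DESeq2 called 3 higher under emetine and 4 higher in its interaction.

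Directions of named genes that turned were, scaled to ribosomal protein genes, SDHD at 6 h in the knockdown experiment (-0.0049), ATP5PO at 6 h in the emetine experiment (-0.0322), UQCR11 (0.30) and UQCRHL (0.0707) under emetine and UQCR11 in the 9 h difference (0.22). Scaled to spike-ins, those that turned were NDUFA4 (-0.0193), SDHD (-0.12) and UQCRHL (-0.08004) at 6 h in the knockdown experiment, ATP5F1E (-0.0478), NDUFB6 (-0.0643), ATP5MG (-0.0493) and NDUFA4 (-0.0394) with the siRNA, and UQCR11 (0.35), UQCRHL (0.12) and ATP5PO (0.0427) under emetine. The shift of all genes together, given above, is part of each of these values.

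Without 1 library in turn, 23 to 44 rose and 3 to 12 fell at 6 h in the knockdown experiment, 3 to 6 rose at 9 h (3 without DMSO replicate 1 or 2 or STM2457 replicate 2 or 4), 16 to 33 rose at 6 h in the emetine experiment, 3 to 10 rose with the siRNA, and 13 to 22 rose and 3 to 5 fell with emetine. Under YTHDF2 siRNA 3 to 4 rose and under emetine 3 to 5 (3 without DMSO replicate 2 or 3 or emetine replicate 1 or 3). The interaction with the siRNA was higher for 0 to 8 and lower for 0 to 1, that with emetine higher for 0 to 3 and lower for 1 to 11, the 9 h effect higher for 0 to 1 and the emetine experiment's effect lower for 1 to 16. The shares of all genes called in these fits are not given beside the counts. The 9 h median relative to all genes was -0.24 to -0.20. Of 97 results for named genes, 77 kept their call without each library and 0 turned direction. These 97 leave out results named only for opposite calls in 2 experiments. Of the 23 genes higher at 6 h in the knockdown experiment and lower at 9 h, 13 remained so without STM2457 6 h replicate 3.

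No clear pairing by replicate number was seen. Same-numbered libraries correlated at -0.165 to 0.297 in the groups of the knockdown experiment, and other pairs at -0.308 to 0.240. The values were -0.0284 to 0.0866 in the 9 h groups (others -0.128 to 0.102) and -0.0885 to 0.125 in the emetine groups (others -0.125 to 0.148). In the same order, 5 of 12, 1 of 8 and 4 of 12 correlated best with their own number. These values cannot tell whether libraries of equal number were handled together. With the replicate block, the interaction with the siRNA was higher for 1 and the emetine experiment's effect lower for 1, and NDUFAF8 in that last difference lost its call. The other counts stayed within 1.5 times.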
